A study of Mus musculus with 6 samples.

Results

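The glucocorticoid receptor and the proteins that hold it ready for hormone were followed through a short dexamethasone treatment: 10 genes chosen by name, namely the corticosteroid receptors Nr3c1 and Nr3c2, the immunophilins Fkbp4 and Fkbp5, the Hsp90 chaperones Hsp90aa1, Hsp90ab1 and Hsp90b1, the co-chaperones Stip1 and Ptges3, and the steroid-converting enzyme Hsd11b1. A member was measured where a probe of the array carried its symbol alone, which held for 8 of the 10 genes through 13 of 38467 probes. Nr3c2 and Hsp90ab1 had no such probe and were not analysed here. In all, 19640 genes had a probe of 1 symbol. The cells were C3H10T1/2, an established mouse mesenchymal line grown in DMEM with fetal bovine serum. Of the 6 cultures, 3 received the solvent DMSO (vehicle) and 3 received 1 µM dexamethasone for 90 minutes, a time the vehicle titles carry too. Each culture was hybridised in Cy3 on its own two-colour array against a Cy5 pool of RNA, described in the sample labels as taken from cells given DMSO, dexamethasone or myostatin and in the series description as vehicle and treated cells. All cultures are of this 1 line, and the series description calls the 3 cultures of a group biological replicates.

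Before it meets hormone, the glucocorticoid receptor is folded and passed along a chain of chaperones. Hsp70 and Hsp40 begin the folding, Stip1 (Hop) bridges Hsp70 to Hsp90, and Ptges3 (p23) closes the mature complex, in which an immunophilin, Fkbp5 (FKBP51) or Fkbp4 (FKBP52), docks on Hsp90 by its tetratricopeptide repeats. Fkbp5 lowers the receptor's affinity for hormone, and the Fkbp5 gene is itself a widely used glucocorticoid target, which makes a short feedback loop; Fkbp4 favours transport to the nucleus. Hsd11b1, in the endoplasmic reticulum, regenerates active glucocorticoid from its inert ketone.

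Every value below is read as the log2 of sample over pool, so that 0 is the level of the pool and a step of 1 is a doubling. The sources do not say whether the sample or the pool is the numerator, and the direction is not settled here. Arrays of the same dye orientation correlated down to -0.33 (Spearman, all probes), between vehicle 2 and dexamethasone 3. Such a correlation does not tell which of sample and pool is the numerator. If the ratio ran the other way on all 6 arrays, all directions given here would swap, while the sizes, the tests and the overlap of groups would be the same. The arrays also fell into 2 sets. On vehicle 3, dexamethasone 2 and dexamethasone 3, from 7.73% to 12.7% of the values equalled the log2 of a ratio of whole numbers from 1 to 10, a pattern that spots of few intensity units can give, although no intensities were used here. On vehicle 1, vehicle 2 and dexamethasone 1 the share ran from 1.86% to 3.79%. The arrays correlated by these sets more than by treatment. Dexamethasone 1 had a Spearman correlation of 0.52 and 0.40 with vehicle 1 and vehicle 2, against -0.22 and -0.27 with dexamethasone 2 and 3. Vehicle 3 correlated at 0.40 and 0.34 with dexamethasone 2 and 3, and at 0.07 with each of the other vehicle arrays. Probes are called low-signal below when at least 1 array had a missing value, a whole-number ratio or a log2 value over 10 in size, a class made from the ratios alone. Array medians ran from -0.12 to 0.57, and the median dexamethasone minus vehicle difference over all 27046 genes and unnamed probes was 0.32. Subtracting each array's own median brought it to 0.02, so the members' differences are given below with and without that step. The medians subtracted were taken over all probes, low-signal probes included. On dexamethasone 2 and 3 they were 0.57 and 0.41, against 0.29 and 0.14 over probes outside that class. Centring on the latter was not tried. A ratio to a pool of the same cells shows no absolute level. Probes were present for 10 of 11 mesenchymal markers (all but Ly6a), and 9 of these 10 had a probe free of low signal. These 10 had a median difference of -0.32, with 8 below 0 and 0 at an unadjusted p under 0.05 in limma (0 after adjustment). With each array centred the median was -0.62, and 2 (Vim and Pdgfrb) were lower by that rule. Of 4 muscle markers 2 (Myog and Myod1) were higher by that rule, 1 with each array centred, and 4 of 4 adipocyte markers lay above 0, none of them passing. Of 13 blood, endothelial and epithelial markers, 12 could be tested and 4 of these had a probe free of low signal. Those 12 had a median difference of 1.16, with 10 above 0 and 1 (Cd3e) higher by that rule, and their list means ran over the arrays from -0.86 to 1.12 in vehicle and from -0.60 to 2.96 in dexamethasone; the part of all these markers in the results was not tested.

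To show the regulatory letters near the start of some of the members, 3 promoter windows are printed from RefSeq (GRCm38.p6). Windows reach from 250 bases before to 50 bases after a gene's start, and 7 of the 10 members had one. Nr3c1, Hsp90aa1 and Hsp90ab1 had none and were not searched. Fkbp5 and Fkbp4 are shown as a paralogous pair with contrasting values, and Hsp90b1 as the member of the endoplasmic reticulum. All 3 lie on the minus strand of their chromosomes, at chr17:28486100-28486399, chr6:128438607-128438906 and chr10:86705395-86705694, and read 5′ to 3′ along the gene. Capitals mark a heat shock element core (GAANNTTC) in Fkbp4 and the endoplasmic reticulum stress element (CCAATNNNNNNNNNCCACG, on either strand) in Hsp90b1.
Fkbp5: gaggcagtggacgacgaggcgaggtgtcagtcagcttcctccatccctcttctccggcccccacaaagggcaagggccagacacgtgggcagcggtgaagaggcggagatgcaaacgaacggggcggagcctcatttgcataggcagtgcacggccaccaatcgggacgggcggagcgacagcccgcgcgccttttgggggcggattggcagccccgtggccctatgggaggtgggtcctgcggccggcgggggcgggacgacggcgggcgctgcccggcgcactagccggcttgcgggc
Fkbp4: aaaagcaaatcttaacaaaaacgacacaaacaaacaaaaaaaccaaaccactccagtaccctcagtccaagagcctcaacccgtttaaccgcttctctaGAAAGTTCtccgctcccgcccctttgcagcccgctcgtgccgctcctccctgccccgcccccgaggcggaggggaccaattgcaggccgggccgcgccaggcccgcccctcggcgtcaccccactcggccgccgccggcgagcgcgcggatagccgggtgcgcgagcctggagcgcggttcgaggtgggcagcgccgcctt
Hsp90b1: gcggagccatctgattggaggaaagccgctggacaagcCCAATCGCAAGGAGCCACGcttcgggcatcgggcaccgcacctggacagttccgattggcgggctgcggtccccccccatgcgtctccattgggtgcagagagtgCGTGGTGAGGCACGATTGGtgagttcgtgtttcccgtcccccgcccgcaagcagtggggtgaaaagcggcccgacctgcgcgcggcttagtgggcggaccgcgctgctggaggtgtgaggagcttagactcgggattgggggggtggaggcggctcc

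Hsp90b1 carried 2 matches of the stress element, 1 on each strand, starting 212 and 107 bases before the gene's start, whereas 0.119% of 32851 promoter windows of the same length held any. Fkbp4 carried 1 heat shock core, starting 151 bases before its start. That core was present in 7.86% of all windows and, among the members found, also in Nr3c2, where it likewise began 151 bases upstream. Its tail-to-tail form (TTCNNGAA), held by 8.52% of windows, was not among the letters of any of the 7 members' windows. Neither was the full glucocorticoid response element (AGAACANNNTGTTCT, in 0.00913% of windows) or its half-site AGAACA (in 19.0%), Fkbp5 included. All motifs were searched on both strands, and the half-site overlaps the full element. A match is a stretch of letters, not a shown binding site. Elements outside the windows were not searched, so the lack of a match says nothing of them.

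Fkbp5 was the member whose groups lay farthest apart. Its log2 ratio was -3.02, -3.06 and -3.00 on vehicle arrays 1 to 3 and 1.30, 0.20 and 1.23 with dexamethasone. The vehicle values were almost identical, 8.13-fold below the pool, and the dexamethasone values all lay above it, by 1.88-fold on average. The lowest dexamethasone value, on array 2, was still far above the highest vehicle value. The group means were -3.02 ± 0.03 and 0.91 ± 0.62 (SD, n = 3 each), a difference of 3.93 ± 0.35 (SE; 95% interval 3.03 to 4.84) or 15.3-fold higher with dexamethasone, and 15.3-fold lower with the sign turned.

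The test of that difference depended on which probes were kept. In limma over all 27046 features its unadjusted p was 9.2e-05, the 17th smallest, and its Benjamini-Hochberg adjusted p was 0.141, so it did not pass 0.05. No feature did (0% called; 1468 had an unadjusted p under 0.05). Keeping only probes measured on all arrays, with no whole-number ratio (which can also arise by coincidence) and no value beyond 10 in size, left 17152 features, of which 0.169% (29) were called. In that limma fit Fkbp5 was called, with an adjusted p of 0.0441, and ranked 22nd by p. Over the other alternatives tried the limma adjusted p of Fkbp5 ran from 0.0632 to 0.989. The size itself moved little: 3.63 with each array centred, 4.59 after quantile normalization, 4.34 within vehicle 1, vehicle 2 and dexamethasone 1, and 3.71 within the other 3 arrays. A single probe reports Fkbp5, and it was not in the low-signal class.

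**Figure D1:**
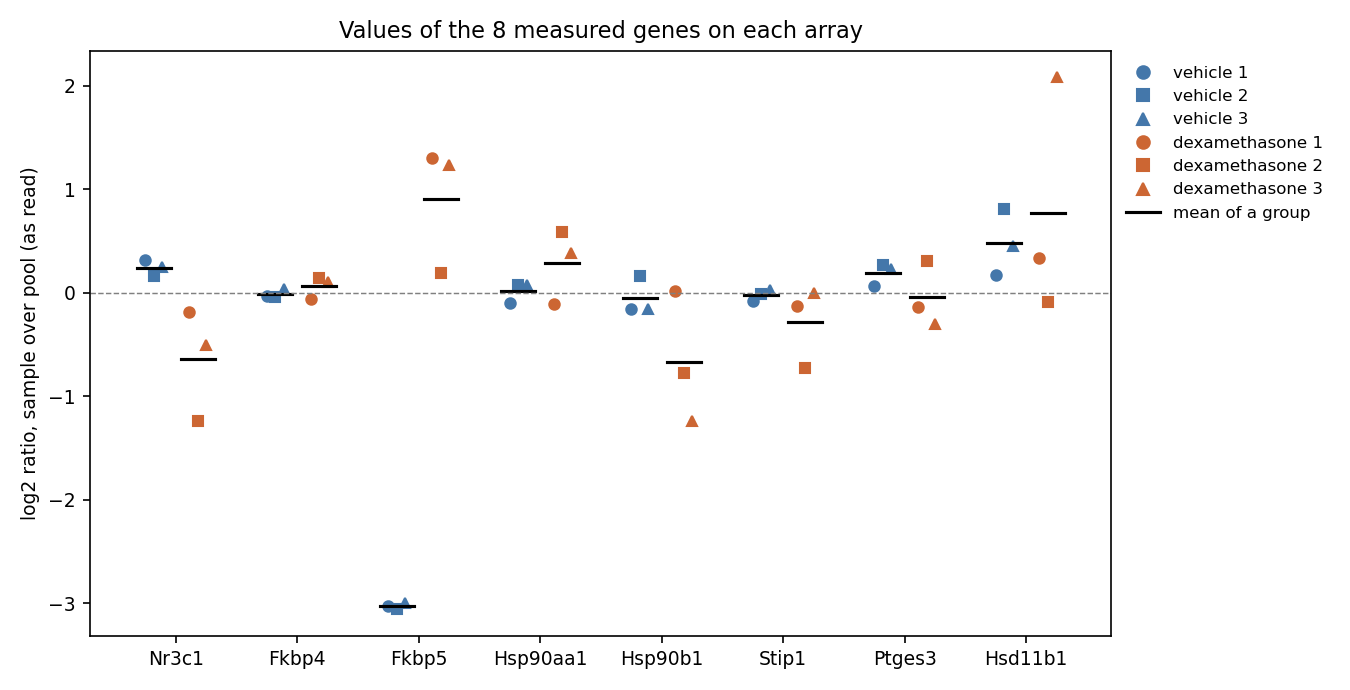
Log2 ratio of sample over pool (vertical axis) for each of the 8 measured genes on the 3 vehicle and 3 dexamethasone arrays; points are arrays, bars are group means, and genes with several probes are averaged. Fkbp5 stands at -3.02 on average in vehicle and 0.91 in dexamethasone, while the means of the other 7 genes lie between -0.66 and 0.78.

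Fkbp4, the paralog that competes for the same place on Hsp90, stayed close to the pool in both groups. Its values were -0.03, -0.04 and 0.03 in vehicle and -0.06, 0.14 and 0.10 in dexamethasone. The groups overlapped, with dexamethasone 1 below all vehicle arrays and the other 2 dexamethasone arrays above them. The difference was 0.08 ± 0.17 (SE), with a 95% interval from -0.35 to 0.50 (limma adjusted p = 0.874). Changes within that interval could not be told from none. With each array centred the difference was -0.23, so the sign of so small a value was set by the scaling.

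The immunophilins were also compared within each array, where any shift common to the array cancels. Fkbp5 minus Fkbp4 was -2.99, -3.01 and -3.03 in vehicle and 1.35, 0.06 and 1.13 in dexamethasone. All 3 dexamethasone arrays lay above all 3 vehicle arrays. The mean gap between the genes moved by 3.86 on the log2 scale between groups, a 14.5-fold change of their ratio. The exact two-sided permutation test over arrays gave p = 0.1, the smallest that 3 arrays against 3 allow. This pair was the only pair compared. On these arrays the mean of Fkbp5 moved more than that of Fkbp4. The exact permutation test could give no p below 0.1, so it cannot decide whether the genes changed unequally beyond these arrays. Nor does the comparison show that Fkbp4 did not change.

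Nr3c1, which encodes the glucocorticoid receptor, was the other member with separated groups. Its values were 0.32, 0.16 and 0.25 in vehicle and -0.19, -1.24 and -0.51 in dexamethasone. Every dexamethasone array was below every vehicle array, with dexamethasone 2 lowest and dexamethasone 1 nearest to vehicle. The means were 0.24 ± 0.08 and -0.64 ± 0.54 (SD, n = 3 each), a difference of -0.89 ± 0.32 (SE; 95% interval -1.70 to -0.07), or 1.85-fold lower with dexamethasone and 1.85-fold higher with the sign turned. The size depended on the processing: the difference was -1.19 with each array centred and -1.90 after quantile normalization, and ran from -1.90 to -0.43 over the alternatives. The unadjusted limma p was 0.0380 and the adjusted p 0.732, which did not pass. Across the array, 7.29% of the 22880 features with all 6 values had all dexamethasone arrays below all vehicle arrays, and 9.95% had them above, so such separation was common. Within vehicle 1, vehicle 2 and dexamethasone 1 the Nr3c1 difference was -0.43, against -1.12 in the other 3 arrays. The unadjusted p was 0.0550 with each array centred, and over all 16 alternatives, each of which kept the direction, it ran from 0.0146 to 0.173. A single probe, outside the low-signal class, reports the gene.

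At an unadjusted p under 0.05, 1 of the 8 measured members was higher and 1 lower, and the other 6 did not pass. Over all features 4.43% were higher and 0.995% lower by that rule, which would swap with the sign turned. The split over all features was 1199 higher and 269 lower, 681 and 424 after quantile normalization, and 1501 and 1754 within vehicle 1, vehicle 2 and dexamethasone 1, where most were lower. The members' median difference was -0.08, with 4 above and 4 below 0, beside 0.32 for all features. After median centring 1 member was above 0 and 7 below, with a median of -0.39 beside 0.02. That centring used medians over all probes. Without low-signal probes and without centring, 3 of the 7 members left were above 0 and 4 below, with a median of -0.0065 beside 0.17. At an unadjusted p under 0.05 in limma the higher member was Fkbp5 and the lower one Nr3c1. Nr3c1 no longer passed that unadjusted threshold after median centring, with either block, without any 1 vehicle array or without dexamethasone 3. Without dexamethasone 1, Hsp90aa1 and Hsp90b1 passed it too, and so did 29.2% of all features then tested.

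**Figure D2:**
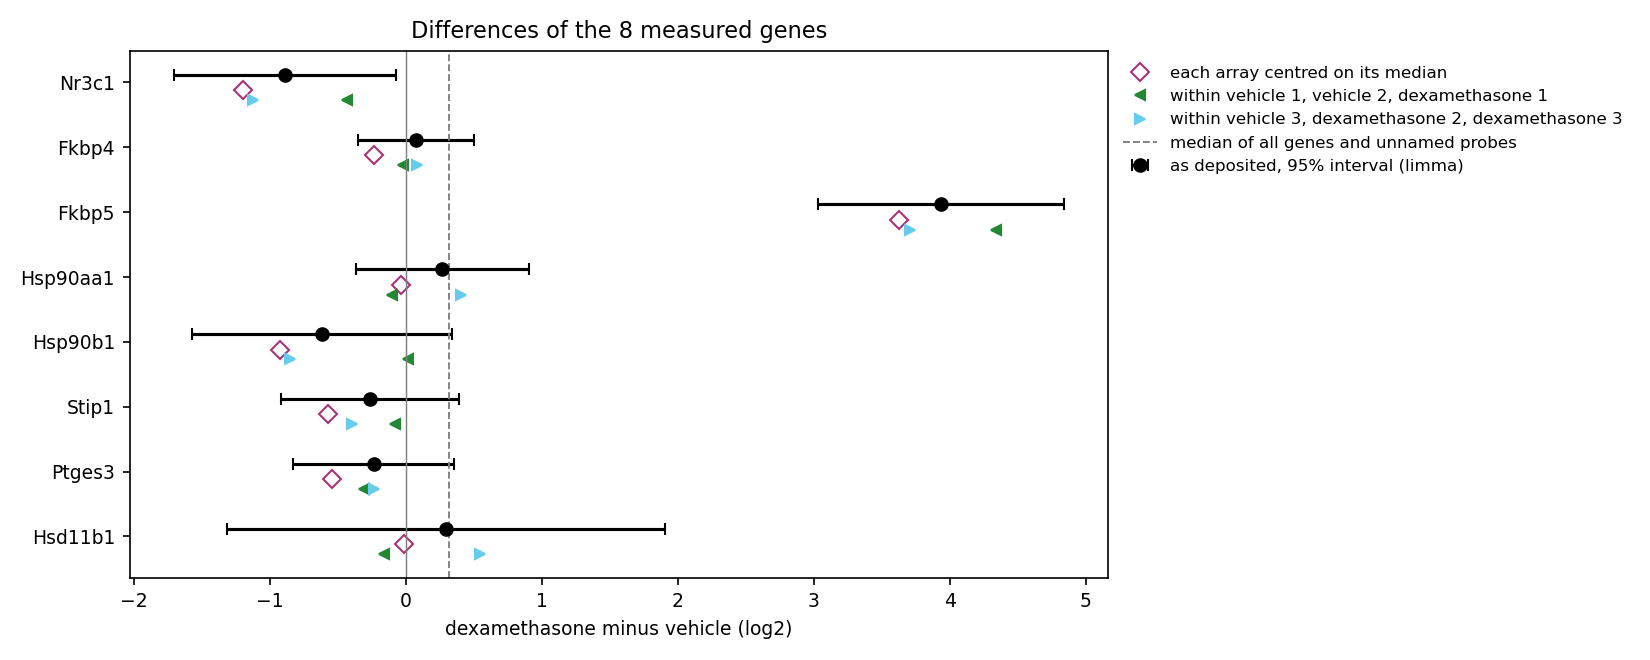
Dexamethasone minus vehicle difference on the log2 scale (horizontal axis) for the 8 measured genes. Black points with bars are the limma estimates and 95% intervals, open diamonds the values with each array centred, and triangles the values within each of the 2 sets of arrays. The interval excludes 0 for Fkbp5 (3.03 to 4.84) and Nr3c1 (-1.70 to -0.07), and includes it for the other 6 genes.

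The cytosolic chaperone Hsp90aa1, the inducible Hsp90 that carries the receptor, had no clear difference and 3 probes that disagreed. Averaged over them, its values were -0.10, 0.08 and 0.08 in vehicle and -0.11, 0.59 and 0.39 in dexamethasone. The difference was 0.27 ± 0.25 (SE; 95% interval -0.36 to 0.91; limma adjusted p = 0.734). Probe mMR027512 alone made up most of it: it read -0.21, -0.24 and 0.10 in vehicle and -0.44, 1.00 and 1.56 in dexamethasone. On dexamethasone 2 its value equalled a whole-number ratio. The other probes, mMC024795 and mMR028925, differed by -0.04 ± 0.26 and 0.03 ± 0.19 (SE). With mMR027512 left out the gene's difference was -0.0065 in the fit without low-signal probes, and with all probes it was -0.037 with each array centred.

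Hsp90b1 (GRP94), the Hsp90 of the endoplasmic reticulum, which folds secreted and membrane proteins and does not carry the receptor, had overlapping groups. Its values were -0.15, 0.17 and -0.15 in vehicle and 0.02, -0.78 and -1.24 in dexamethasone. Dexamethasone 1 lay among the vehicle arrays, and the other 2 dexamethasone arrays lay below all of them. The difference was -0.62 ± 0.37 (SE; 95% interval -1.57 to 0.34; limma adjusted p = 0.732). Within vehicle 1, vehicle 2 and dexamethasone 1 it was 0.014, and within the other 3 arrays -0.85 ± 0.51 (SE). Neither passed, each set has a single array in 1 group, and the sets were not tested against each other. With each array centred the difference over all arrays was -0.93.

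The co-chaperones of the folding chain lay near the pool. Stip1, which joins Hsp70 to Hsp90, read -0.08, -0.02 and 0.03 in vehicle and -0.12, -0.73 and 0.00 in dexamethasone, a difference of -0.26 ± 0.26 (SE; 95% interval -0.91 to 0.39; limma adjusted p = 0.739). Its lowest array was dexamethasone 2, the groups overlapped, and with each array centred the difference was -0.57. Its only probe was left out with low-signal probes because its value on dexamethasone 3 was exactly 0.00, a ratio of equal whole numbers. Ptges3, the p23 that stabilises the closed Hsp90 complex, averaged 0.07, 0.27 and 0.23 in vehicle and -0.14, 0.31 and -0.30 in dexamethasone.

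The Ptges3 difference was -0.23 ± 0.23 (SE; 95% interval -0.82 to 0.36; limma adjusted p = 0.740). Its 3 probes all fell on the same side of 0, at -0.38 ± 0.26 (mMC014140), -0.25 ± 0.34 (mMC025015) and -0.08 ± 0.19 (mMR029348; SE). Only in mMC014140 did every dexamethasone value lie below every vehicle value; 8.42% of all probes with 6 values did the same. With each array centred the gene's groups separated too, at -0.54, where 3.99% of features separated downward. The centred and the deposited difference kept the same sign.

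Hsd11b1 had the widest spread of the members and 2 probes that pointed in opposite directions. Probe mMA034672 read 0.20, 1.79 and 0.62 in vehicle and -0.55, 0.25 and 2.26 in dexamethasone. Probe mMC022237 read 0.15, -0.18 and 0.29 in vehicle and 1.21, -0.43 and 1.90 in dexamethasone. Both were highest on dexamethasone 3, but they disagreed on vehicle 2 and dexamethasone 1. Their differences were -0.22 ± 0.87 and 0.81 ± 0.64 (SE), and the gene's average was 0.30 ± 0.63 (95% interval -1.32 to 1.91; limma adjusted p = 0.867). Neither probe was in the low-signal class, and without dexamethasone 3 the gene's difference was -0.36.

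**Figure D3:**
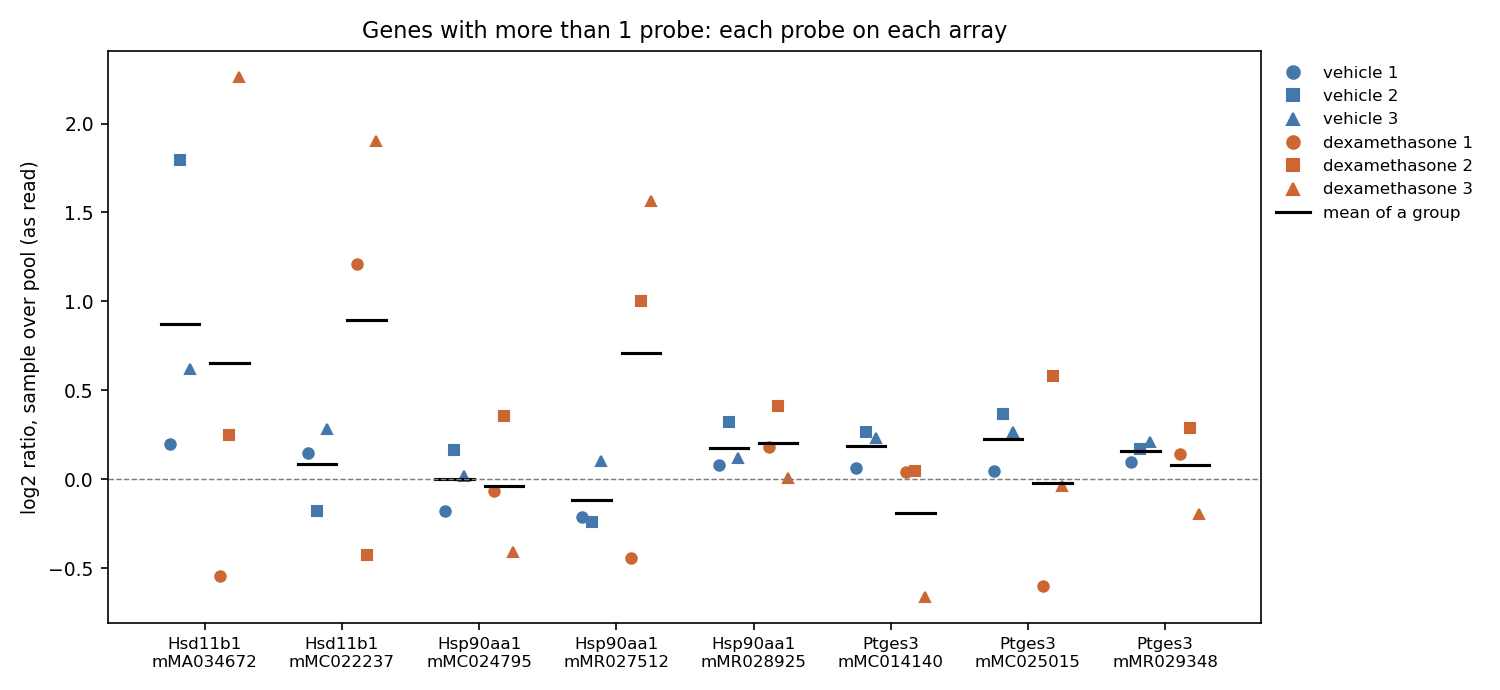
Log2 ratio of sample over pool (vertical axis) for each probe of Hsd11b1, Hsp90aa1 and Ptges3 on each array; points are arrays and bars are group means. Probe mMR027512 of Hsp90aa1 reaches 1.00 and 1.56 on dexamethasone 2 and 3 while the other probes of that gene stay at or below 0.41.

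The spread within groups was unequal. The dexamethasone SD exceeded the vehicle SD for 8 of 8 members, and for 84.2% of the 22880 features with all values. Over the members the SD ran from 0.03 (Fkbp5) to 0.32 (Hsd11b1) in vehicle and from 0.10 (Fkbp4) to 1.15 (Hsd11b1) in dexamethasone. The median SD of the members was 0.09 and 0.46, beside 0.17 and 0.71 for all features.

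Genes whose pattern over the 6 arrays was most like that of Fkbp5 were sought among 6588 named genes with 6 values and a range of at least 2 on the log2 scale. The 5 with the highest Pearson correlation were Gclc (r = 0.998), Il6ra (0.992), Vwa3a (0.992), A230056P14Rik (0.989) and Tent5b (0.987), each over 6 points that share a pool and fall into the groups, given as a description. Gclc, the catalytic subunit of the enzyme that starts glutathione synthesis, read -1.77, -1.70 and -1.86 in vehicle and 1.04, 0.49 and 1.05 in dexamethasone. Like Fkbp5 it was lowest among the dexamethasone arrays on array 2, a likeness favoured by the choice through correlation. Its difference was 2.64 ± 0.23 (SE; limma adjusted p = 0.141). Il6ra, a chain of the interleukin-6 receptor, differed by 1.76 ± 0.23 (SE) and was also lowest on array 2 among the dexamethasone arrays. Vwa3a has a single probe, which is in the low-signal class.

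Other genes of the pathway, 98 in 6 lists, gave few differences. The lists were drawn from general knowledge, but with earlier results of these data known. At an unadjusted p under 0.05, 3 of the 88 tested were higher and 2 lower, beside 4.43% and 0.995% of all features, and 0 passed in limma after adjustment (5 at an unadjusted p under 0.05). Their median difference was 0.01, with 44 above and 44 below 0, beside 0.32 for all features. With each array centred, 0 were higher and 2 lower, and the median was -0.30 beside 0.02.

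Among 26 genes of the co-chaperone list, which also holds Hsp70 and Hsp90 genes, 1 was lower, 0 were higher and 25 did not pass. The median difference was -0.10. The lower gene was Hspa1a, an inducible Hsp70, which read 0.04, -0.92 and 2.33 in vehicle and -1.07, -4.98 and -5.99 in dexamethasone. Its vehicle arrays were spread widely and dexamethasone 1 lay close below vehicle 2, while the other 2 dexamethasone arrays were far lower. The difference was -4.50 ± 1.59 (SE; limma adjusted p = 0.732). Its near-identical copy Hspa1b differed by -0.29 ± 0.16 (SE) and did not pass; how far the array separates such close copies is uncertain. The co-chaperone genes Cdc37l1 (0.39 ± 0.18, SE) and Sgta (0.59 ± 0.33, SE) had the next smallest p and did not pass.

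Of 12 other FKBP family genes tested, none was higher or lower: 0 had an unadjusted p under 0.05 in limma, and 0 passed after adjustment; the median difference was 0.17. The genes with the smallest p were Aipl1 (1.12 ± 0.63, SE), Fkbp1a, the target of the drug FK506 (0.50 ± 0.31), Fkbp8 (0.24 ± 0.22) and Fkbp14 (-0.25 ± 0.23). Among the measured FKBP genes a difference with an interval clear of 0 was therefore found for Fkbp5 alone; whether it differed from each of the others was tested only against Fkbp4.

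In the heat shock response, 1 of 12 genes was higher and 1 lower. Hsph1, an Hsp110 that exchanges nucleotide on Hsp70, read -0.20, -0.13 and -0.04 in vehicle and 0.38, 0.46 and 0.25 in dexamethasone, a difference of 0.48 ± 0.17 (SE; limma adjusted p = 0.732). The lower gene was Hspa1a again, which both lists hold. Cryab, a small heat shock protein, differed by 0.48 ± 0.22 (SE) and did not pass. The list's median was -0.01.

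Of 19 endoplasmic reticulum chaperone and stress genes, 1 was higher and 0 lower. Herpud1, which serves protein disposal from the endoplasmic reticulum, read -0.35, -0.46 and -0.31 in vehicle and 0.02, 0.20 and 0.21 in dexamethasone, a difference of 0.51 ± 0.17 (SE; limma adjusted p = 0.732). Ddit3 (-0.40 ± 0.18), the stress transcription factor CHOP, and the Hsp40 gene Dnajb9 (-0.48 ± 0.24) had differences on the other side that did not pass, as did the folding factor gene Cnpy3 (0.40 ± 0.18; SE each). Hspa5 (BiP), the Hsp70 partner of Hsp90b1, was named after its value was seen; it differed by -0.46 ± 0.26 (SE).

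Of 10 genes of corticosteroid metabolism and transport, 1 was higher and 0 lower, and 8 lay above 0, with a median of 1.06. With each array centred the list's median was 0.75 and 0 were higher. The shift was not particular to this list: the blood, endothelial and epithelial markers had a median of 1.16, and of 0.89 with each array centred. The higher gene was H6pd, the enzyme that supplies Hsd11b1 with NADPH. It read -0.23, -0.28 and -0.31 in vehicle and 0.42, 0.52 and 0.45 in dexamethasone, so the groups were tight and fully apart. The difference was 0.73 ± 0.16 (SE), or 1.66-fold (limma adjusted p = 0.516), and it was 0.42 with each array centred. Its only probe is left out with low-signal probes, since 1 value equals a whole-number ratio. The steroid exporter genes Abcb1a (0.88 ± 0.40, SE) and Abcb1b (0.81 ± 0.44, SE) did not pass. Hsd11b2, which inactivates glucocorticoid, differed by 1.53 ± 0.84 (SE), with dexamethasone 1 among the vehicle arrays, and by 2.99 without its 1 low-signal probe of 2.

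Among 14 genes of nuclear transport, 0 were higher and 1 was lower, with a median of -0.10. Ipo13, an importin that carries the glucocorticoid receptor into the nucleus, read 0.13, 0.02 and 0.11 in vehicle and -0.38, -0.95 and -1.20 in dexamethasone. All dexamethasone arrays were below all vehicle arrays, as for Nr3c1. The difference was -0.93 ± 0.27 (SE), or 1.91-fold lower (limma adjusted p = 0.732). Nup153 (-0.44 ± 0.20), a nuclear pore protein, the dynein heavy chain gene Dync1h1 (0.34 ± 0.21) and the importin gene Kpnb1 (-0.24 ± 0.18; SE each) did not pass.

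**Figure D4:**
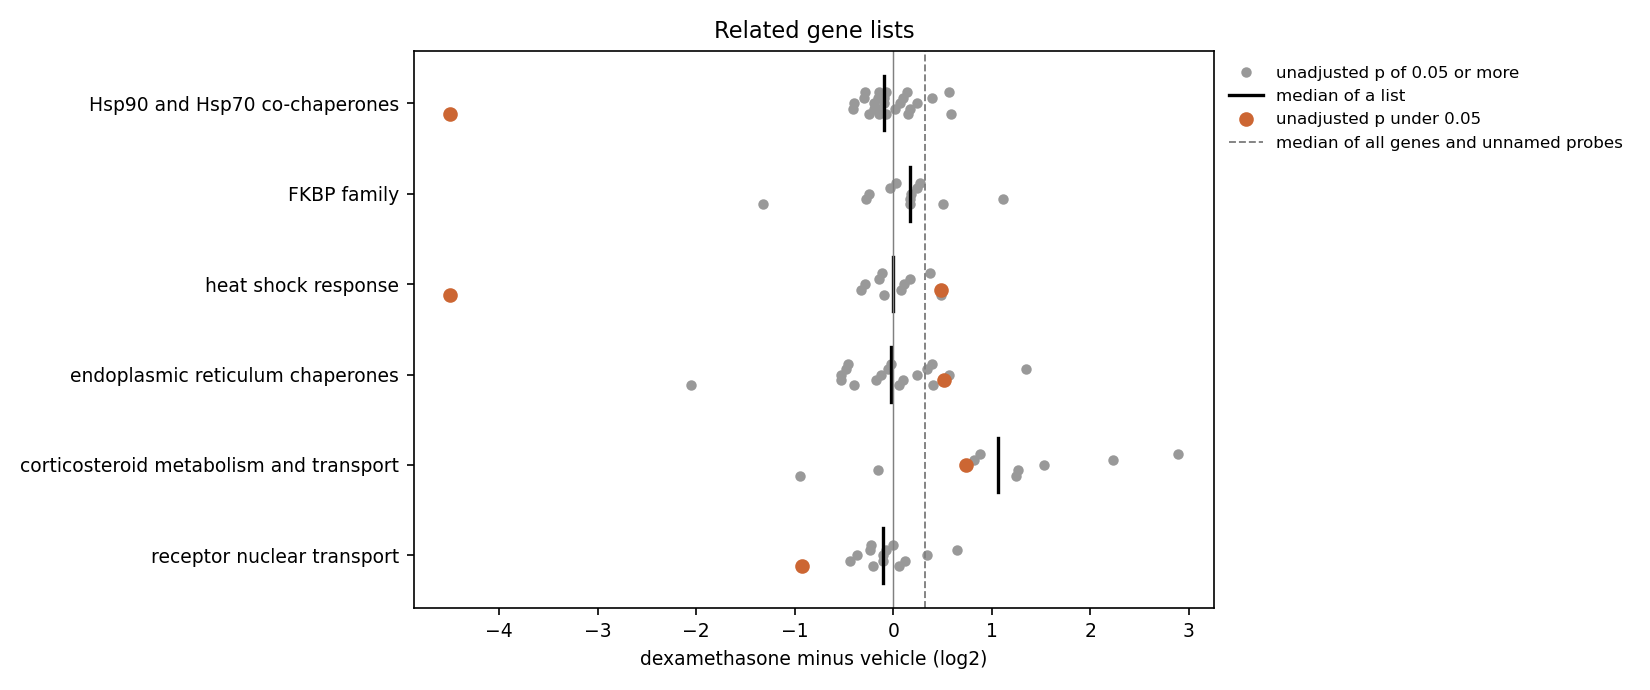
Dexamethasone minus vehicle difference on the log2 scale (horizontal axis) for each gene of the 6 related lists; grey points did not reach an unadjusted p under 0.05 and orange points did, black bars are list medians and the dashed line is the median of all features, 0.32. Hspa1a, in the lists of co-chaperones and heat shock response, stands at -4.50, and the median of the corticosteroid metabolism list, 1.06, lies above the dashed line while the other 5 lie below it. The median of the blood, endothelial and epithelial markers, not drawn, was 1.16.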

How the data were processed

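Expression was measured on 6 two-colour arrays, and the groups came from the sample titles. The authors deposited 1 signed score per probe and array. It was read as a log2 ratio of sample and pool from its decimals and from values equal to ratios of small whole numbers. On 4 arrays some deposited scores exceed 100 in size, which a log2 ratio of intensities cannot, so the scale is inferred. These scores were kept in the main fit. Differences over all features there ran from -303 to 174, against -4.50 to 5.25 without low-signal probes. The authors used limma, per the submitters' processing notes; its version, background correction and normalization were not given in the sources used here. Gene symbols came from the platform's annotation, 29456 of 38467 probes having 1 symbol; no symbol changed against RefSeq identifiers.

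Probes of a gene were averaged, and other probes kept singly, with at least 2 values per group. Groups were compared with limma 3.58.1 in R 4.3.3 (lmFit, eBayes), two-sided, with Benjamini-Hochberg adjustment over all features at 0.05; SE and 95% intervals are moderated. The number of arrays limits the precision. The fit was tested on simulated data. The members, lists and alternatives were chosen with earlier results of these data known, and the within-set values were added after seeing the data. Named were all members, up to 4 genes per list by p, and the 5 genes most like Fkbp5.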

Additional observations from a re-analysis of the deposited data

How the results depend on the processing

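Over 16 alternatives the difference of Nr3c1 and Ptges3, and over 15 that of Stip1, kept its direction and did not pass after adjustment. Fkbp5 kept its direction over 16, from 3.63 to 4.59, and passed only without low-signal probes (3.93, adjusted p 0.0441, limma). Fkbp5 minus Fkbp4 kept its direction over 11, from 3.60 to 4.75. The sign turned after median centring for Fkbp4 (-0.23), Hsp90aa1 (-0.037) and Hsd11b1 (-0.011), and after quantile normalization (-0.16, -0.16 and -0.58). It turned within the arrays with few whole-number ratios for Fkbp4 (-0.0185), Hsp90aa1 (-0.097), Hsd11b1 (-0.16) and Hsp90b1 (0.014), and without low-signal probes for Hsp90aa1 (-0.0065). Without 1 array at a time, Hsd11b1 ran from -0.36, without dexamethasone replicate 3, to 0.73. The cause was not tested.

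The count called over all features was 0. It was 29 without low-signal probes, 5 with values on all 6 arrays, 2 within the arrays with few whole-number ratios and 14 within the others (2 arrays against 1, the lone array assumed to vary like the others), and 0 without any 1 array. At an unadjusted p under 0.05 the 1468 became 2312 with array weights and 3255 within the arrays with few such ratios. Without 1 array it ran from 695, without vehicle replicate 2, to 6947, without dexamethasone replicate 1; it was 786 without vehicle replicate 1. The share higher was 81.7%, 73.9% after median centring, 61.6% after quantile normalization and 46.1% within the arrays with few whole-number ratios, and without 1 array it reached 93.9% (without vehicle replicate 3). Among the members the count of 2 was 1 after median centring, with the replicate block, with the array set block and within either set, and from 1 to 4 without 1 array, 4 without dexamethasone replicate 1, where 29.2% of all features reached that threshold. Among the related genes the count of 5 was 2 after either normalization, 3 with either block, 8 without low-signal probes, 3 within the arrays with many whole-number ratios, and from 1 (without vehicle replicate 1) to 23 (without dexamethasone replicate 1) without 1 array.

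Whether the replicate numbers shared by the titles pair the arrays was not settled. The deviations of same-numbered arrays from their group means correlated at 0.24, -0.15 and 0.33 (Spearman). Those of different-numbered arrays ran from -0.43 to 0.34. Deviations from a mean of 3 arrays are tied to each other, so these values cannot exclude pairing. With the replicate block 0 features were called and 1303 had an unadjusted p under 0.05. The low-signal class, made from the ratios alone, held the only probe of Stip1 and 1 probe each of Hsp90aa1 and Ptges3. Each entered it through a whole-number ratio on 1 array, which can also arise by coincidence.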
